A study of Mus musculus with 4 samples.

Results

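*Cyp2e1*, *Cyp26b1*, *Kbtbd11*, *Slc26a10* and *Sirpb1c* are 5 of the 32285 mouse genes counted in single cells of the brain microvasculature. They were chosen by their levels: an earlier look at the same libraries found them lower in *Angpt2*-KO than in *Angpt2*-WT cells of several types. The difference between genotypes therefore picked them, and it is given here as a description, with no test. The libraries came from 2 *Angpt2*-WT mice (*Angpt2*+/+, here WT1 and WT2) and 2 *Angpt2*-KO mice (*Angpt2*-/-, here KO1 and KO2), with 1 library from each mouse at 3 months of age. The mice numbered 1 were female and those numbered 2 male. The knockout is constitutive: an exon of the floxed gene was deleted in all cells through a *Pgk*-Cre line. The paper reports that a mutant transcript without this exon is still made. The allele was backcrossed to C57BL6/J, and the *Angpt2*-WT mice were littermates from heterozygous parents. Vascular fragments were pulled out of the dissociated cerebrum with beads against PECAM1, an endothelial surface protein, so the cells that are not endothelial are those that came along with the fragments.

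Angiopoietin-2, the product of *Angpt2*, is a secreted ligand of the endothelial receptor TIE2. *Cyp26b1* encodes a cytochrome P450 that inactivates retinoic acid, the hormone-like acid that cells make from vitamin A through aldehyde dehydrogenases of the Aldh1a group and that acts on nuclear receptors. *Cyp2e1* encodes another cytochrome P450, best known from the liver, where it oxidises ethanol and other small molecules. *Slc26a10* belongs to the SLC26 family of anion transporters, and *Kbtbd11* encodes a protein with a BTB domain and kelch repeats, a build shared by adaptors of cullin-based ubiquitin ligases. *Sirpb1c* belongs to the signal regulatory proteins, surface receptors of myeloid cells, of which the beta type signals through the adaptor TYROBP.

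The 5 genes lie on 5 chromosomes (GRCm38, GENCODE M21 gene models). *Cyp2e1* is at chr7:140763739-140774987 on the plus strand, *Cyp26b1* at chr6:84571414-84593908 on the minus strand, *Slc26a10* at chr10:127171393-127180645 on the minus strand and *Sirpb1c* at chr3:15795145-15848528 on the minus strand. *Kbtbd11*, at chr8:15011025-15033333 on the plus strand, shares its chromosome with *Angpt2*, which runs from 18690263 to 18741562 on the minus strand. The RefSeq promoter table (GRCm38.p6) held 4 of the 5 genes, not *Kbtbd11*. The stretches printed here, each 5′ to 3′ on the strand of its gene and ending just before the outermost annotated start, show what the promoters of genes with a shared direction have in common. Capitals mark matches to 6 motifs searched on both strands: the TATA box TATAAA, the pentamer CCAAT, the GC box GGGCGG, the nuclear receptor unit AGGTCA, the forkhead motif TGTTTAC and the E-box CACGTG, of which only the E-box reads the same on both strands. No matches overlap in these stretches.
*Cyp2e1*, chr7:140763569-140763738, plus strand, 170 bases: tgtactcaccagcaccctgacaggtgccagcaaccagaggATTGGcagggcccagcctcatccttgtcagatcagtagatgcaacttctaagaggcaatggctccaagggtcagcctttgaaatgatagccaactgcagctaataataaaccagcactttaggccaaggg
*Cyp26b1*, chr6:84593909-84594060, minus strand, 152 bases: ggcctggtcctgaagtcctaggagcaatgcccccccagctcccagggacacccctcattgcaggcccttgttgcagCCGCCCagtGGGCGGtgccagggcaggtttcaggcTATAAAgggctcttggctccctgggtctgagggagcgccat
*Slc26a10*, chr10:127180646-127180832, minus strand, 187 bases: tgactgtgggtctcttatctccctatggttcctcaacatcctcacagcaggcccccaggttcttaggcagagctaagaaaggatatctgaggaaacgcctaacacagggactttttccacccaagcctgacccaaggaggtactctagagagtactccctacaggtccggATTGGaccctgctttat
*Sirpb1c*, chr3:15848529-15848737, minus strand, 209 bases: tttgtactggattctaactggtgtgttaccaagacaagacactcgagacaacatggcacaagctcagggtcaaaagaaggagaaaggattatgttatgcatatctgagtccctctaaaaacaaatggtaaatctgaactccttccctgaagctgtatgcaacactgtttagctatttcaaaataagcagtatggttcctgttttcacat

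The 4 stretches had no motif that all of them carried. *Cyp2e1* and *Slc26a10* each held CCAAT, read as ATTGG on the gene's own strand, and CCAAT occurred in 33.8% of the 32851 promoters in the table over the 250 bases before the RefSeq start. *Cyp26b1* held TATAAA and GGGCGG, the latter once on each strand, and these occurred in 12.4% and 32.7% of all promoters. The printed stretches are shorter than 250 bases, so these shares are not like for like. Over the full 250 bases TATAAA was also found in *Cyp2e1*, 31 bases before the RefSeq start. It was found in *Slc26a10* too, 68 bases before that start on the opposite strand. *Sirpb1c* held none of the 6 in the printed stretch. Of the remaining motifs, AGGTCA occurred in 14% of all promoters, TGTTTAC in 3.17% and CACGTG in 6.02%, and these 3 were not among the letters before the start of any of the 4 genes. A match is a description of the letters and not evidence of a bound site.

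After cells with more than 500 detected genes and less than 10% mitochondrial UMIs (unique molecular identifiers, each standing for 1 captured RNA molecule) were kept, 17999 of 19809 barcodes remained, 2900 to 5742 per mouse. The libraries held 31753395 to 42903731 UMIs, with a median of 4088.5 to 7351.5 per cell, and pairs of libraries shared 0 to 13 barcodes. The 14155 cells named brain ECs from fixed markers carried all 7 EC markers in every mouse. They were divided into arterial-like, capillary-like, venous-like and angiogenic-like clusters, with the 5 genes and their neighbours kept out of the clustering. Neither capillary-like cluster had a capillary marker among its 10 leading genes, and their cells were the shallowest, with a median of 2957.5 and 3396 UMIs. The angiogenic-like cluster held 40 and 52 cells of WT1 and WT2 but 839 and 944 of KO1 and KO2, and venous-like ECs gave 48.9% and 58.9% of all EC UMIs in the *Angpt2*-WT mice against 26% and 27.9% in the *Angpt2*-KO mice. The targeted gene could not check the labels, since 3′ tags can still come from a deleted allele: *Angpt2* read 10.7 and 9.87 CPM (UMIs of the gene per 1000000 UMIs of that cell group in that mouse) in ECs of WT1 and WT2 and 64.8 and 41 in KO1 and KO2.

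In ECs, *Cyp2e1* had the largest difference between genotypes of the 4 genes found there. The *Angpt2*-WT mice read 21.4 and 24.4 CPM and the *Angpt2*-KO mice 1.06 and 1.23. The groups were far apart, at 22.9 ± 2.09 against 1.15 ± 0.116 CPM (mean ± SD, n = 2 mice each), or 20-fold, from 1391 UMIs in the *Angpt2*-WT and 51 in the *Angpt2*-KO mice. The fitted log2 fold change was -4.33 with a standard error of 0.173, the third lowest of 13515 genes. The mice of each genotype lay close together, and the genotypes did not overlap.

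*Cyp26b1*, the retinoic acid hydroxylase, read 11.5 and 10.4 CPM in ECs of WT1 and WT2 and 2.75 and 2.09 in KO1 and KO2. The means of 10.9 ± 0.755 and 2.42 ± 0.465 CPM (SD, n = 2) differed 4.52-fold, with a log2 fold change of -2.19 (SE 0.199). *Slc26a10*, the transporter, read 41.8 and 39.6 CPM in the *Angpt2*-WT mice and 13.8 and 15.6 in the *Angpt2*-KO mice. This was 2.77-fold, from 40.7 ± 1.52 to 14.7 ± 1.22 CPM (SD, n = 2), with a log2 fold change of -1.49 (SE 0.122). *Kbtbd11*, the BTB and kelch gene, read 77.6 and 77.2 CPM in WT1 and WT2 and 31.3 and 32.4 in KO1 and KO2, a 2.43-fold difference and a log2 fold change of -1.30 (SE 0.103). The *Angpt2*-KO mice lay below both *Angpt2*-WT mice for each of these 3 genes, an order that repeats the choice of genes and from which nothing is read. *Sirpb1c* had 0 UMIs in the 14155 ECs of the 4 mice, so that its label as a gene lowered across cell types did not hold.

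The 4 genes with UMIs in ECs were 4 of 4 tested there that edgeR called lower at a Benjamini-Hochberg adjusted p under 0.05, where 2.06% of all 13515 genes tested were called lower. Since the same contrast chose the genes, nothing is read from that count. The values just inside the choice differ widely, and *Kbtbd11* held only rank 229 from the lowest, *Slc26a10* rank 150 and *Cyp26b1* rank 42. No numerical threshold was stated for the choice, so no genes just outside it can be given.

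**Figure D1:**
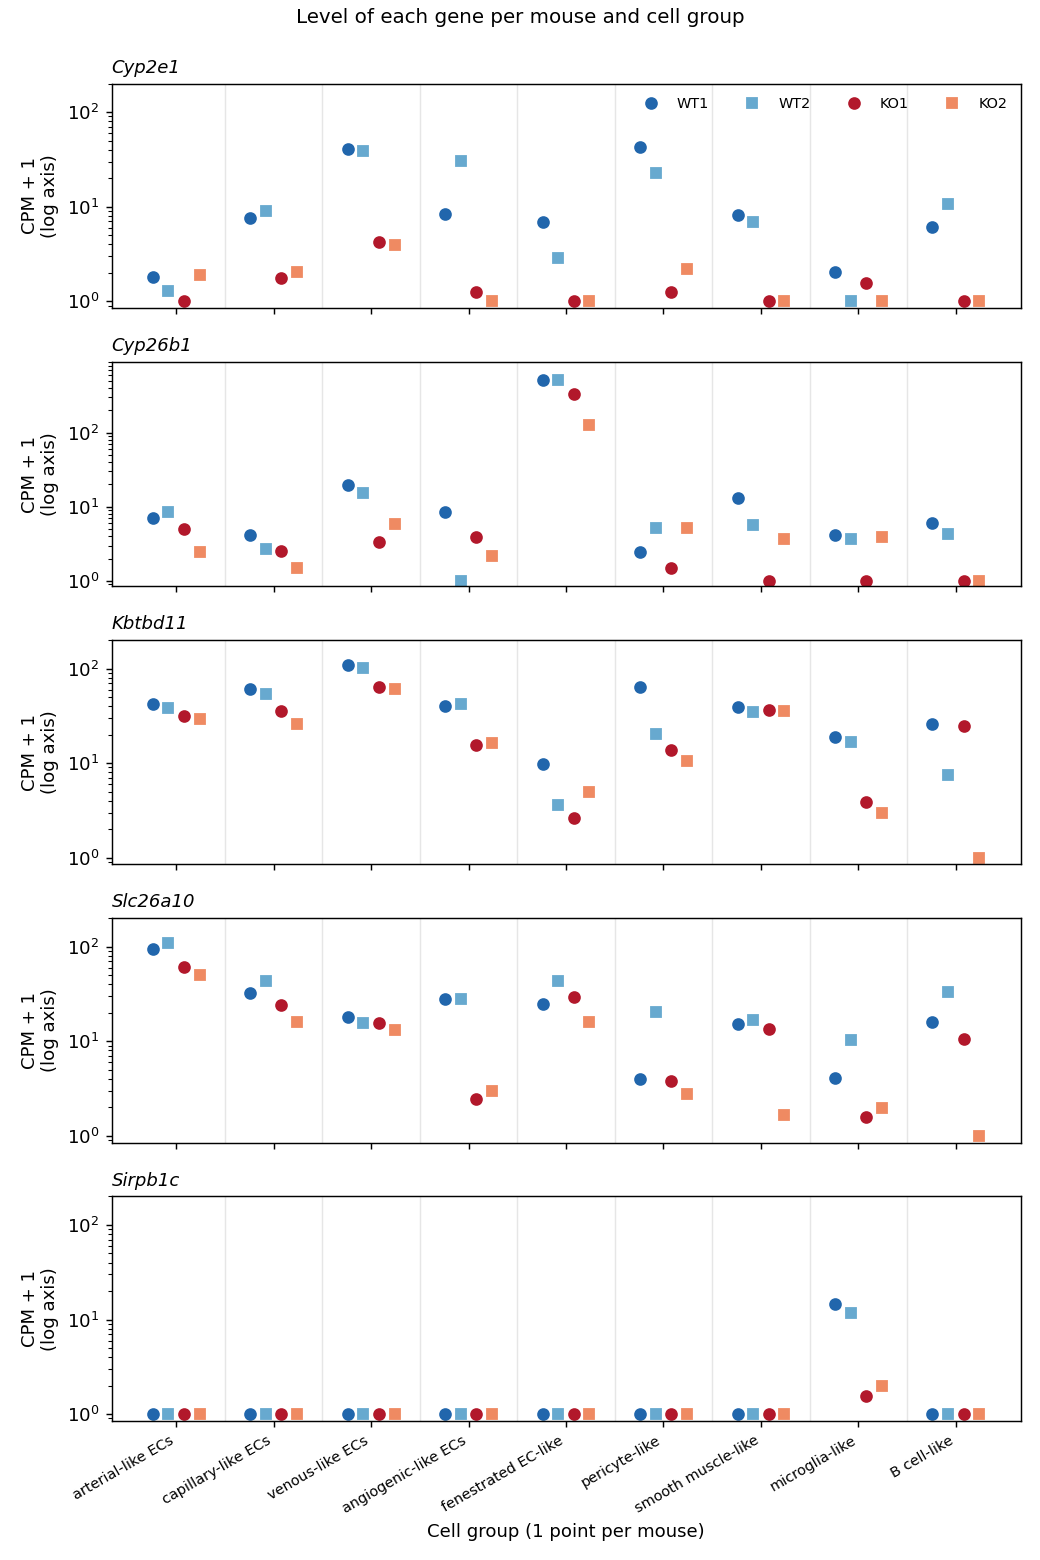
Level of each gene in each mouse (points, CPM within that cell group plus 1, log axis) by cell type or endothelial zone, with *Angpt2*-WT mice in blue and *Angpt2*-KO mice in red or orange. *Cyp2e1* reads 38.0 to 40.2 CPM in venous-like ECs of the *Angpt2*-WT mice and 2.94 to 3.25 in those of the *Angpt2*-KO mice, and *Sirpb1c* appears in microglia-like cells alone.

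The lower levels went with fewer ECs that held a UMI. *Cyp2e1* was seen in 4.47% of ECs in WT1 and 4.85% in WT2, but in 0.383% and 0.482% in KO1 and KO2. In microglia-like cells, which should lack this enzyme, the share was 0.481% and 0% in WT1 and WT2 and 0.377% and 0% in KO1 and KO2, at a median depth of 4521, 4040.5, 6265 and 3497 UMIs per cell against 5432, 4512.5, 7504.5 and 3885 in ECs. In venous-like ECs of KO1 and KO2 the share was 1.09% and 1.73%. Among positive ECs a cell held 3.92 and 3.63 UMIs of *Cyp2e1* on average in WT1 and WT2 and 3 and 1.35 in KO1 and KO2. The richest single EC held 40 UMIs in WT1 and 20 in WT2 but 6 and 5 in KO1 and KO2.

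The other genes showed the same order by share of cells. *Kbtbd11* was found in 32.1% and 28.9% of ECs in WT1 and WT2 and in 20.2% and 12.3% in KO1 and KO2, against 3.85%, 4.32%, 1.89% and 0.743% of microglia-like cells in the same mice. *Slc26a10* was found in 18% and 16.9% against 7.28% and 5.62% of ECs, and *Cyp26b1* in 3.01% and 3.38% against 1.15% and 0.675%. Depth was made equal by thinning every EC to 2000 UMIs, which left out 180, 578, 113 and 608 shallower ECs of WT1, WT2, KO1 and KO2. *Kbtbd11* was then in 11.9%, 11.6%, 5.77% and 5.88% of ECs and *Slc26a10* in 7.79%, 8.28%, 3.14% and 3.08%, in the same order of mice. *Cyp2e1* was in 1.71% and 2.01% of thinned ECs in the *Angpt2*-WT mice and in 0.152% and 0.282% in the *Angpt2*-KO mice.

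Within the *Angpt2*-WT mice, a comparison the choice of genes did not use, each of the 4 genes had its own place along the vessel. *Cyp2e1* read 40.2 and 38.0 CPM in venous-like ECs of WT1 and WT2, 6.51 and 8.12 in capillary-like ECs and 0.816 and 0.286 in arterial-like ECs, the last from 6 and 2 UMIs. It was lower in arterial-like than in venous-like ECs by a log2 fold change of -6.11 (SE 0.227, edgeR with Benjamini-Hochberg adjusted p = 1.37e-32). The step from capillary-like to venous-like ECs alone was 2.4 on the log2 scale (SE 0.136, edgeR adjusted p = 8.64e-23). Venous-like ECs held 91.8% of all EC UMIs of *Cyp2e1* in each *Angpt2*-WT mouse, more than their 48.9% and 58.9% of all EC UMIs.

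*Cyp26b1* also peaked on the venous side, at 18.4 and 14.5 CPM in WT1 and WT2, but was lowest in capillary-like ECs, at 3.17 and 1.68, with arterial-like ECs between them at 5.99 and 7.44. Venous-like ECs exceeded capillary-like ECs by 2.76 on the log2 scale (SE 0.222, edgeR adjusted p = 3.96e-16) and arterial-like ECs exceeded capillary-like ECs by 1.46 (SE 0.296, edgeR adjusted p = 5.82e-05). *Kbtbd11* rose along the same axis as *Cyp2e1* with a smaller span, from 41.2 and 37.4 CPM in arterial-like through 60.3 and 53.3 in capillary-like to 107 and 99.8 in venous-like ECs. Its arterial-like level was lower than its venous-like level by a log2 fold change of -1.41 (edgeR adjusted p = 1.07e-24). *Slc26a10* ran the other way. It read 93.9 and 109 CPM in arterial-like, 31.3 and 42.4 in capillary-like and 17.1 and 14.7 in venous-like ECs, and arterial-like ECs exceeded venous-like ECs by 2.68 on the log2 scale (edgeR adjusted p = 2.21e-36).

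All 4 passed each of the 3 tests between zones, where 28.1% of 10760 genes passed between arterial-like and venous-like, 37.6% between arterial-like and capillary-like and 41.7% between venous-like and capillary-like ECs. With such backgrounds, a call of zonation is common among genes, and the sizes and directions say more than the count. Median depth differed between zones too, at 10939 and 10060.5 UMIs per venous-like cell of WT1 and WT2 against 3830 and 2936.5 per capillary-like cell and 6548 and 5193 per arterial-like cell, and its part in the result was not tested.

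The order of zones was read again in the *Angpt2*-KO mice. *Slc26a10* still read higher in arterial-like ECs, at 60.7 and 49.1 CPM in KO1 and KO2 against 14.5 and 12.1 in venous-like ECs, a log2 fold change of 2.06 (SE 0.16, edgeR adjusted p = 6.68e-10). *Kbtbd11* was lower in arterial-like than in venous-like ECs by a log2 fold change of -1.05 (SE 0.146, edgeR adjusted p = 9.11e-06). *Cyp2e1* gave 0 and 3 UMIs in arterial-like and 19 and 18 in venous-like ECs of KO1 and KO2, a ratio of venous-like to arterial-like levels of 6.03 (95% exact interval 1.91 to 30.6, counting error only). *Cyp26b1*, at 4.08 and 1.47 CPM in arterial-like and 2.39 and 4.9 in venous-like ECs, overlapped between the zones (log2 fold change -0.49, SE 0.522, edgeR adjusted p = 0.71). Whether the zonation itself differs between genotypes was not tested.

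Set by zone, *Cyp2e1* in venous-like ECs was 39.1 ± 1.56 CPM in *Angpt2*-WT and 3.09 ± 0.217 in *Angpt2*-KO mice (SD, n = 2), a 12.6-fold difference with a log2 fold change of -3.71 (SE 0.198). In capillary-like ECs the *Angpt2*-KO mice read 0.757 and 1.04 CPM, 8.15-fold below the *Angpt2*-WT mice. In arterial-like ECs, where the *Angpt2*-WT mice gave 8 UMIs and the *Angpt2*-KO mice 3, the genotypes overlapped. *Cyp26b1* differed in venous-like ECs by a log2 fold change of -2.21 (SE 0.278), and in capillary-like ECs its KO1 and KO2 values were 1.51 and 0.519 CPM, with KO1 just under WT2.

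*Kbtbd11* was lower in *Angpt2*-KO mice in each zone, by a log2 fold change of -0.46 (SE 0.153) in arterial-like, -0.96 (SE 0.175) in capillary-like and -0.80 (SE 0.125) in venous-like ECs. Its KO1 and KO2 values in these zones were 30.2 and 28.5, 34.8 and 25.2, and 62.9 and 60.1 CPM, highest in venous-like ECs of both mice, with arterial-like ECs above capillary-like ECs in KO2. *Slc26a10* was at 101 ± 10.8 against 54.9 ± 8.26 CPM (SD, n = 2) in arterial-like ECs, at 31.3 and 42.4 against 23.1 and 15.2 CPM in capillary-like ECs and at 17.1 and 14.7 against 14.5 and 12.1 CPM in venous-like ECs. The fitted log2 fold changes were -0.93 (SE 0.134), -1.01 (SE 0.2) and -0.31 (SE 0.18), and the differences between zones were not tested. Of the members with enough UMIs to be tested, edgeR called 1 of 3 lower in arterial-like ECs (*Slc26a10*), 3 of 3 in capillary-like ECs and 3 of 4 in venous-like ECs (not *Slc26a10*), where 0.178%, 0.231% and 0.46% of all genes tested were called lower. These counts repeat the choice and nothing is read from them.

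**Figure D2:**
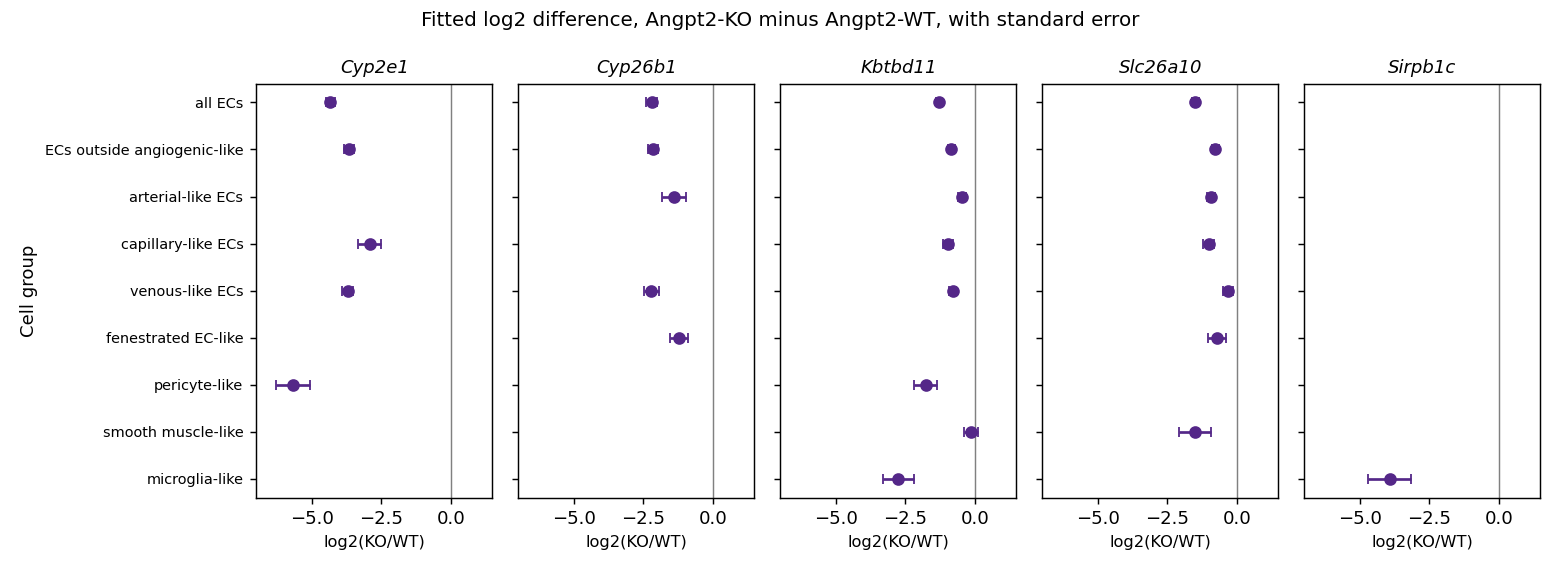
Log2 fold change of each gene, *Angpt2*-KO against *Angpt2*-WT, with bars of 1 standard error from the edgeR fit, by cell type or endothelial zone, for groups in which the gene had enough UMIs to be fitted. All fitted values lie below 0, from -5.68 for *Cyp2e1* in pericyte-like cells to -0.13 for *Kbtbd11* in smooth muscle-like cells. The genes were chosen for this direction, and nothing is read from it. The value of -5.68 rests on UMIs in 4 cells of WT1 and 5 cells of WT2.

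Finer EC clusters separated the genes further. The venous-like ECs consisted of a large cluster led by *Aldh1a1*, *Wnt5a* and *Flrt2* and a smaller one led by *Adgrg6*, *Ch25h*, *Lrg1*, *Ackr1* and *Vcam1*. *Cyp2e1* read 49.5 and 54.6 CPM in WT1 and WT2 in the larger cluster but 11.5 and 11.4 in the smaller one. *Cyp26b1* was placed the other way round, at 5.23 and 2.84 CPM in the larger and 59.2 and 33.3 in the smaller cluster, where KO1 and KO2 read 8.51 and 15. *Kbtbd11* was highest in the smaller cluster, at 168 and 134 CPM in WT1 and WT2 and 144 and 98.4 in KO1 and KO2, and there the genotypes overlapped. In the larger venous-like cluster it read 87.7 and 78.5 CPM in the *Angpt2*-WT and 47.4 and 45.8 in the *Angpt2*-KO mice.

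*Slc26a10* was highest in the larger arterial-like cluster, led by *Stmn2*, *Bmx* and *Alpl*, at 104 and 125 CPM in WT1 and WT2 and 66 and 58.1 in KO1 and KO2. In the smaller arterial-like cluster, led by the matrix genes *Mgp*, *Fbln5* and *Eln*, it read 29.8 and 26.4 CPM against 0 and 6.66, where the 18 cells of KO1 allow up to 15.5 CPM and KO2 rests on 4 UMIs. In the smaller venous-like cluster *Slc26a10* was higher in the *Angpt2*-KO mice, at 23.4 and 15 CPM against 8.91 and 12.9. In the smaller arterial-like cluster *Cyp26b1* overlapped between genotypes, at 14.9 and 7.03 CPM in WT1 and WT2 against 0 and 8.33 in KO1 and KO2. *Cyp2e1* gave 0 UMIs there in WT1, WT2 and KO1 and 2 in KO2. For none of *Cyp2e1*, *Cyp26b1*, *Kbtbd11* and *Slc26a10* did both *Angpt2*-KO mice therefore lie below both *Angpt2*-WT mice in every EC cluster. In the smaller arterial-like cluster this rests on few UMIs. *Cyp2e1* had none in the *Angpt2*-WT mice to be lowered, and *Cyp26b1* had 8 in WT2 and 5 in KO2.

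**Figure D3:**
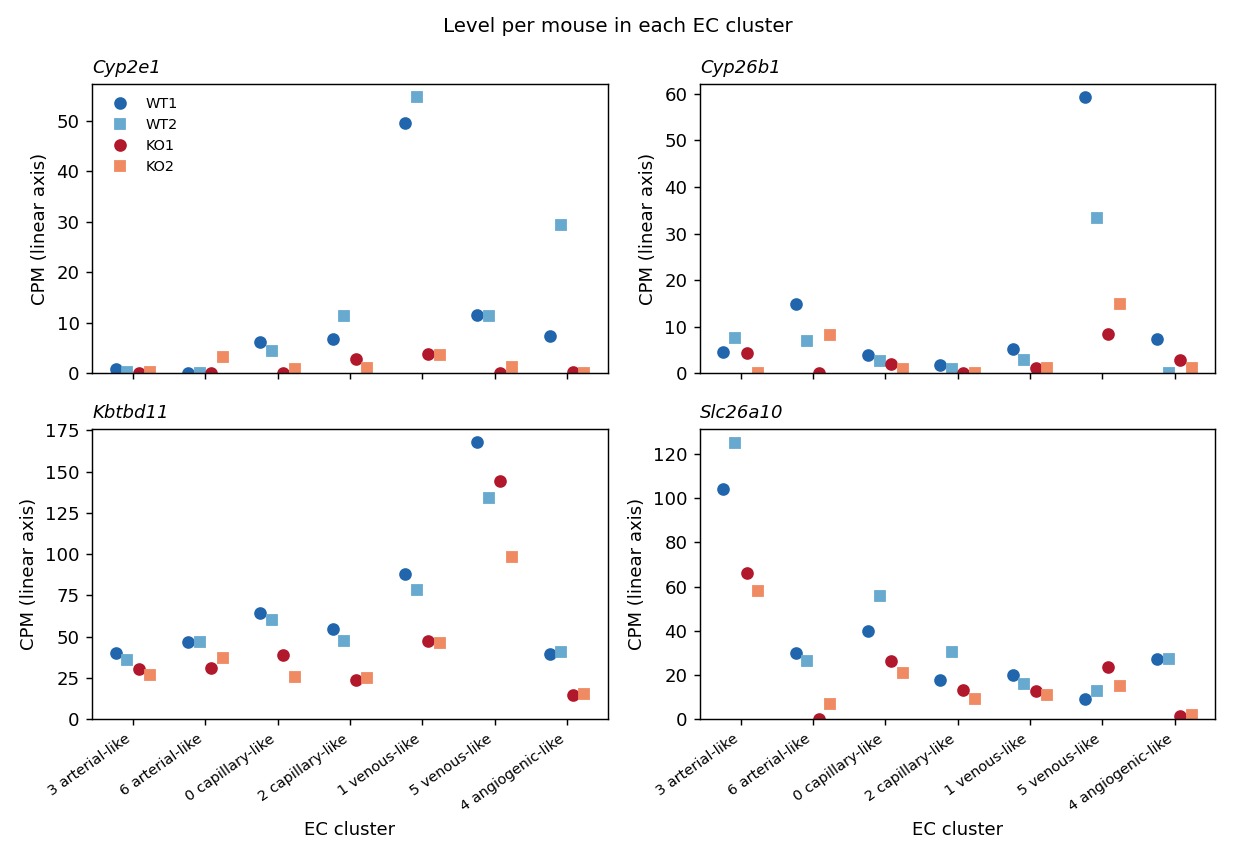
Level of *Cyp2e1*, *Cyp26b1*, *Kbtbd11* and *Slc26a10* in each mouse (points, CPM within that cluster, linear axis) by EC cluster. *Cyp2e1* and *Cyp26b1* peak in different venous-like clusters, at 49.5 and 54.6 CPM in the larger and at 59.2 and 33.3 in the smaller one for WT1 and WT2.

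The angiogenic-like cluster, whose leading genes include the tip cell genes *Apln* and *Esm1*, was compared with the other ECs of the same *Angpt2*-KO mice. *Slc26a10* read 1.47 and 1.95 CPM there in KO1 and KO2 against 26.9 and 21.5 elsewhere, with a log2 fold change of -3.87 (SE 0.203, edgeR with Benjamini-Hochberg adjusted p = 1.01e-76). *Kbtbd11* read 14.7 and 15.3 CPM against 48.8 and 39.9, a log2 fold change of -1.56 (SE 0.102, edgeR adjusted p = 2.15e-49). Against capillary-like ECs alone the differences were -3.55 and -1.01 on the log2 scale. *Cyp2e1*, with 3 UMIs in KO1 and 0 in KO2 in the cluster, was called lower by edgeR (log2 fold change -3.43, SE 0.687, adjusted p = 7.86e-06) but not by DESeq2 (adjusted p = 0.0715), and the ratio of other ECs to the cluster was 11.1 (95% exact interval 3.59 to 55.9, counting error only). *Cyp26b1* did not pass (log2 fold change -0.22, SE 0.348, edgeR adjusted p = 0.69), at 2.93 and 1.2 CPM in the cluster against 2.56 and 2.48 in the other ECs. Thus 3 of 4 genes were called lower, where 13.3% of 11040 genes were. The cluster is nearly all *Angpt2*-KO cells, so choosing genes lower in *Angpt2*-KO cells favours genes that are low in it. Nothing is read from that count.

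The 40 and 52 angiogenic-like cells of WT1 and WT2 read higher for both *Slc26a10* and *Kbtbd11*. The first was at 27.2 and 27.1 CPM, 15.9-fold above the *Angpt2*-KO cells of the cluster, and the second at 39.6 and 40.7 CPM. These *Angpt2*-WT values rest on few cells, and *Cyp2e1* gave 3 and 13 UMIs.

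Because the cluster made up a large share of *Angpt2*-KO ECs, the levels were also taken outside it. *Cyp2e1* then read 21.6 and 24.3 CPM in WT1 and WT2 and 1.92 and 1.76 in KO1 and KO2, 12.5-fold apart. *Cyp26b1* read 11.5 and 10.5 against 2.56 and 2.48 CPM, 4.38-fold apart, close to its 4.52-fold in all ECs. *Kbtbd11* narrowed to 1.76-fold and *Slc26a10* to 1.69-fold, at 78.2 and 77.7 against 48.8 and 39.9 CPM and at 42 and 39.8 against 26.9 and 21.5 CPM. Log2 fold changes outside the cluster were -3.66 (SE 0.17) for *Cyp2e1*, -2.15 (SE 0.183) for *Cyp26b1*, -0.84 (SE 0.118) for *Kbtbd11* and -0.78 (SE 0.129) for *Slc26a10*. All 4 of 4 tested were called lower by edgeR, where 0.433% of 13166 genes were, a count that again follows from the choice.

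*Cyp2e1* was also seen in a few pericyte-like cells, the mural cells of capillaries. It read 41.5 and 21.5 CPM in WT1 and WT2 and 0.255 and 1.18 in KO1 and KO2, from 49 against 3 UMIs. These UMIs lay in 4 of 76 cells of WT1, 5 of 146 of WT2, 1 of 172 of KO1 and 1 of 208 of KO2. Summed over the mice the levels were 55.6-fold apart (95% exact interval 18 to 279, counting error only). That interval takes UMIs as separate draws, which UMIs held by so few cells are not. The fitted log2 fold change of -5.68 (SE 0.622) ran from -6.6 without KO2 to -4.58 without KO1. *Kbtbd11* read 62.2 and 19.5 CPM against 12.7 and 9.43, and the *Angpt2*-WT mice differed from each other more than WT2 did from KO1. Pericyte-like cells also carried EC markers, all 7 of 7, at a median of 60.4% and 52.4% of the EC level in WT1 and WT2 and 64% and 65.1% in KO1 and KO2. *Cyp2e1* stood at 194% and 88.2% of the EC level in the *Angpt2*-WT and 23.9% and 96% in the *Angpt2*-KO mice, and *Kbtbd11* at 80.1%, 25.2%, 40.7% and 29.1%. The part of RNA from attached or nearby ECs in these values was not tested. Of the members, 2 of 2 tested were called lower by edgeR in pericyte-like cells, where 1.73% of all genes were, which again repeats the choice.

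Smooth muscle-like cells split the genes. *Cyp2e1* read 7.27 and 5.82 CPM in WT1 and WT2 and 0 in both *Angpt2*-KO mice, 28 against 0 UMIs. The 28 UMIs lay in 5 cells of WT1 and 3 of WT2. The floor of 3 UMIs per library allows up to 3.11 CPM in KO1 and 2.01 in KO2. *Kbtbd11* overlapped, at 38.5 and 33.3 against 35.3 and 34.9 CPM (log2 fold change -0.13, SE 0.241). *Slc26a10* read 14.1 and 15.9 CPM in the *Angpt2*-WT mice and 12.5 and 0.671 in KO1 and KO2, so that KO2 set most of the difference. EC markers in these cells stood at a median of 39.3% and 40.8% of the EC level in WT1 and WT2 and 52.5% and 39.7% in KO1 and KO2. *Kbtbd11* was at 49.6% and 43.1% of its EC level in the *Angpt2*-WT and 113% and 108% in the *Angpt2*-KO mice. Of the members, 0 of 2 tested were called lower by edgeR, where 0.00976% of genes were.

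Fenestrated endothelial-like cells, the kind found in choroid plexus vessels, were where *Cyp26b1* was by far highest. It read 505 and 515 CPM in WT1 and WT2, in 66.9% and 74.6% of cells, and 331 and 125 in KO1 and KO2, in 57.7% and 40.4% of cells. The *Angpt2*-KO mice differed more from each other than KO1 did from the *Angpt2*-WT mice, and the mean was 510 ± 6.94 against 228 ± 146 CPM (SD, n = 2), 2.24-fold. *Slc26a10*, at 24.1 and 42.3 against 28.1 and 15.1 CPM, and *Kbtbd11*, at 8.77 and 2.57 against 1.65 and 3.93 CPM, overlapped between genotypes. *Cyp2e1* gave 13 UMIs in the *Angpt2*-WT and 0 in the *Angpt2*-KO mice. WT2, at 1.84 CPM, lay under the 1.96 CPM that the same floor allows KO2, so no fold is given. In this cell type edgeR called 0 of 2 members and 0% of 9716 genes lower, 401 genes had an unadjusted p under 0.05 in either direction, and DESeq2 called 4.

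Tested within the *Angpt2*-WT mice, the 4 genes differed in which cell types held them. *Cyp2e1* gave 1391 UMIs in ECs and 1 in microglia-like cells, a ratio of levels of 39.5 (95% exact interval 7.07 to 1560, counting error only). ECs exceeded microglia-like cells by log2 fold changes of 2.14 for *Kbtbd11* (SE 0.267, edgeR adjusted p = 5.61e-09), 2.72 for *Slc26a10* and 1.83 for *Cyp26b1*. Against pericyte-like cells, *Cyp2e1* did not pass (log2 fold change -0.31, SE 0.253, edgeR adjusted p = 0.462), while *Slc26a10* was higher in ECs by 1.75 (edgeR adjusted p = 4.62e-05) and *Cyp26b1* by 1.9 (edgeR adjusted p = 0.00899). *Kbtbd11* was higher in ECs by 1.12 in edgeR (adjusted p = 9.08e-05), a call that DESeq2 did not make (adjusted p = 0.0547). Of all 10528 genes, 53% passed against microglia-like and 20.5% against pericyte-like cells.

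Against smooth muscle-like cells, ECs were higher by 1.71 for *Cyp2e1*, 1.03 for *Kbtbd11* and 1.36 for *Slc26a10* on the log2 scale, with edgeR adjusted p = 9.23e-07, 3.85e-07 and 8.11e-07. *Cyp26b1* did not pass there (log2 fold change 0.24, SE 0.263, edgeR adjusted p = 0.5). Against fenestrated endothelial-like cells, *Kbtbd11* was higher in ECs by 3.99 (edgeR adjusted p = 1.44e-16) and *Cyp2e1* by 2.8 (edgeR adjusted p = 2.57e-09), *Cyp26b1* was lower by a log2 fold change of -5.59 (edgeR adjusted p = 6.7e-35), and *Slc26a10* did not pass (0.16, SE 0.169, edgeR adjusted p = 0.518). In these comparisons 43% and 36% of all genes passed. In order of level within the *Angpt2*-WT mice, *Cyp26b1* thus stood highest in fenestrated endothelial-like cells, and its levels in ECs and smooth muscle-like cells did not differ beyond their error. The same was true of *Cyp2e1* between ECs and pericyte-like cells and of *Slc26a10* between ECs and fenestrated endothelial-like cells.

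**Figure D4:**
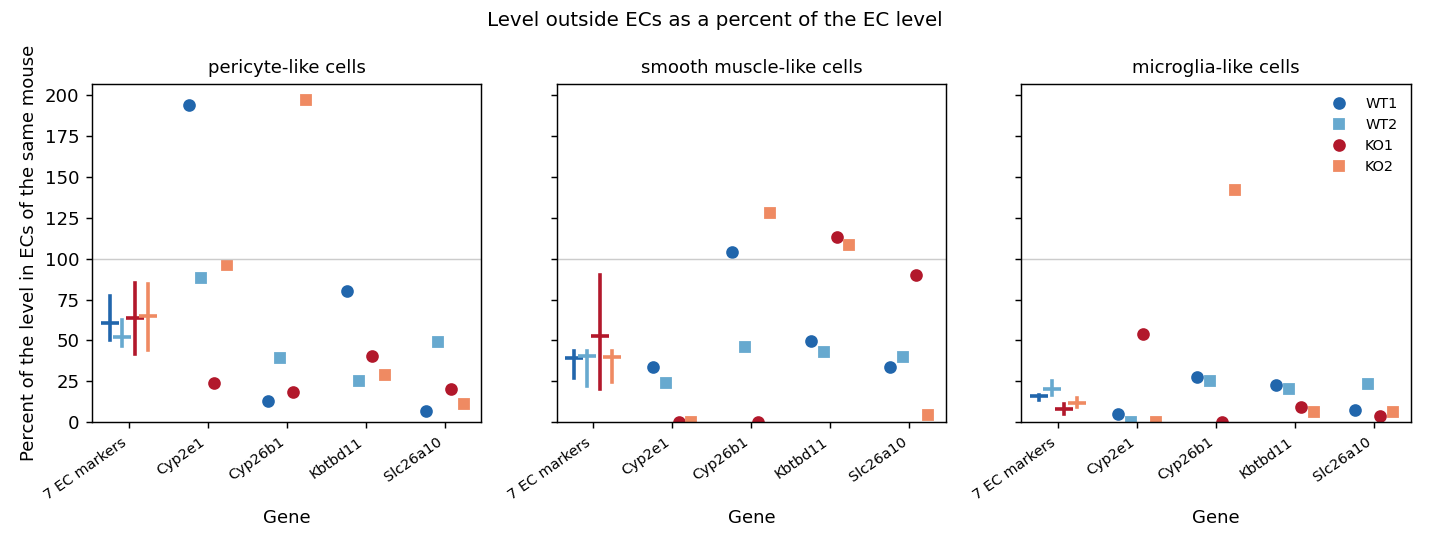
Level of *Cyp2e1*, *Cyp26b1*, *Kbtbd11* and *Slc26a10* in pericyte-like, smooth muscle-like and microglia-like cells as a percent of their level in ECs of the same mouse, with 1 point per mouse, beside the 7 EC markers (line from lowest to highest, tick at the median). *Cyp2e1* is at 194% and 88.2% of the EC level in pericyte-like cells of WT1 and WT2, where the EC markers have medians of 60.4% and 52.4%.

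*Sirpb1c* was read in microglia-like cells alone, with 23 UMIs in 12 cells over the 4 mice. WT1 gave 13 UMIs in 6 of 208 cells, WT2 8 UMIs in 4 of 162 cells, and KO1 and KO2 1 UMI each in 1 of 265 and 1 of 269 cells. This is 13.6 and 10.6 CPM against 0.572 and 0.989 CPM, a mean of 12.1 ± 2.11 against 0.781 ± 0.295 CPM (SD, n = 2), and the genotypes did not overlap. The shares of cells were 2.88% (95% exact Clopper-Pearson interval 1.07 to 6.17) and 2.47% (0.677 to 6.2) in WT1 and WT2 and 0.377% and 0.372% in KO1 and KO2. Such intervals cover counting error only. In ECs, where no UMI was found, the 3 UMIs that a count of 0 allows put WT1 at up to 0.114 CPM and WT2 at up to 0.0884 CPM. The levels read in microglia-like cells were 119-fold and 120-fold above these limits, leaving aside the counting error of their 13 and 8 UMIs. The 3 UMIs also allow up to 0.0931% and 0.0639% of the ECs of WT1 and WT2 to hold a UMI.

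The nearest relatives of *Sirpb1c* were read in the same cells. *Sirpb1b* gave 2 UMIs in each *Angpt2*-WT mouse and 3 in each *Angpt2*-KO mouse, and *Sirpb1a* gave 0, 0, 2 and 0 UMIs in WT1, WT2, KO1 and KO2. Reads of these near-identical genes could have been split or dropped in counting, so their levels are uncertain. *Sirpa*, the inhibitory receptor of the family, read 499 and 422 CPM against 615 and 598 CPM and did not pass (log2 fold change 0.34, SE 0.155, edgeR adjusted p = 0.64). *Tyrobp*, the adaptor, read 2000 and 2160 CPM against 1930 and 1860 CPM (edgeR adjusted p = 0.812). The summed level of the 8 microglia markers was 23700 and 22000 CPM in WT1 and WT2 and 26700 and 23300 in KO1 and KO2.

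*Kbtbd11* was also lower in microglia-like cells of the *Angpt2*-KO mice, at 17.8 and 15.9 CPM against 2.86 and 1.98 CPM, from 29 against 7 UMIs (log2 fold change -2.75, SE 0.548). EC markers moved with it: all 7 were detected, and they summed to 1800 and 2460 CPM in microglia-like cells of WT1 and WT2 and 887 and 1420 CPM in those of KO1 and KO2. As a percent of the EC level, *Kbtbd11* stood at 22.9% and 20.6% in WT1 and WT2 and 9.15% and 6.1% in KO1 and KO2, beside EC marker medians of 15.8%, 20.5%, 8.01% and 12%. The part of endothelial RNA in this value was not tested. Of the members, 0 of 2 tested (*Kbtbd11* and *Sirpb1c*) were called lower by edgeR in microglia-like cells, where 0.0996% of 9040 genes were.

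Genes of the same pathways were taken from lists. These lists were chosen with earlier results of these data known, so the counts of calls in them are a description. Of 21 retinoid genes other than *Cyp26b1*, 12 were tested in ECs, and edgeR called 4 lower and 1 higher in *Angpt2*-KO mice, where 2.06% of all genes were called lower and 3.75% higher. The list's median log2 fold change was -0.06, beside -0.02 for all genes. The lower genes included *Aldh1a1* and *Aldh1a3*, which make retinoic acid, and *Tgm2*, a transglutaminase that retinoic acid is known to induce. *Aldh1a1* read 10.9 and 10.7 CPM in WT1 and WT2 and 5.06 and 3.73 in KO1 and KO2 (log2 fold change -1.31, SE 0.186, edgeR adjusted p = 0.00722). *Aldh1a3* differed by a log2 fold change of -1.48 (edgeR adjusted p = 0.0122) and *Tgm2* by -0.74 (edgeR adjusted p = 0.0279). *Stra6*, a membrane carrier that takes up retinol, was higher, at 84.3 and 80.9 against 184 and 185 CPM (log2 fold change 1.14, SE 0.0988, edgeR adjusted p = 0.00191).

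These retinoid genes were zoned within the *Angpt2*-WT mice as well. Arterial-like ECs were below venous-like ECs by log2 fold changes of -5.69 for *Aldh1a1*, -2.48 for *Aldh1a3* and -1.52 for *Tgm2*, and above them by 1.44 for *Stra6*, with edgeR adjusted p from 2.05e-32 to 3.61e-17. The venous-like share of EC UMIs was lower in *Angpt2*-KO mice (48.9% and 58.9% against 26% and 27.9%), and its part in the result was not tested. Outside the angiogenic-like cluster edgeR called 0 of the 12 lower and *Stra6* still higher (log2 fold change 0.67, adjusted p = 0.0161). In pericyte-like cells *Aldh1a1* was lower by a log2 fold change of -1.77 (edgeR adjusted p = 0.00404) and *Tgm2* by -1.01 (edgeR adjusted p = 0.0326), while *Stra6* was higher by 0.96 (edgeR adjusted p = 0.0261).

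The other enzymes that clear retinoic acid, *Cyp26a1* and *Cyp26c1*, and the receptor gene *Rarb* were too low in ECs to be tested. *Dhrs3*, a retinal reductase, did not pass (log2 fold change 0.29, edgeR adjusted p = 0.312), nor did *Por*, the reductase that feeds electrons to cytochromes P450, at 90.7 and 87.8 against 70.5 and 65.7 CPM (log2 fold change -0.41, edgeR adjusted p = 0.0575). In a list of the remaining cytochrome P450 genes together with *Por*, *Cyb5a* and *Cyb5r3*, 18 of 102 were tested in ECs. Of these, 0 passed in either direction, with a median log2 fold change of -0.09. Of the SLC26 family 3 of 10 were tested and 0 passed, among them *Slc26a6* (-0.01) and *Slc26a11* (-0.12). Of the other Kbtbd genes together with *Cul3* and *Rbx1*, 7 of 11 were tested and 0 passed. Of the signal regulatory proteins and their partners 4 of 7 were tested in ECs and *Sirpa* alone was called, higher in *Angpt2*-KO mice at 1.48 and 0.796 against 9.89 and 4.87 CPM (log2 fold change 2.7, edgeR adjusted p = 0.00976). Outside the angiogenic-like cluster *Sirpa* did not pass (log2 fold change 0.77, edgeR adjusted p = 0.674), and its ligand gene *Cd47* did not pass in ECs (0.05, edgeR adjusted p = 0.885).

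*Kbtbd11* begins 3.73 Mb from *Angpt2* on chromosome 8, and the genes around them were read in the same EC comparison. Within 10 Mb of *Angpt2*, 90 genes other than the 5 were tested, of which edgeR called 1 lower and 6 higher in *Angpt2*-KO mice, 7.78% in all, where 5.82% of all genes were called in either direction. Outside the angiogenic-like cluster, 0 of 87 were called in either direction. The 1 lower gene, *5830468F06Rik*, overlaps *Kbtbd11* on the opposite strand, at 1.03 and 1.62 CPM in WT1 and WT2 and 0.266 and 0.318 in KO1 and KO2 (log2 fold change -2.19, SE 0.464, edgeR adjusted p = 0.0333). The higher genes, in order of distance, were *Agpat5*, *Ckap2*, *Fgfr1*, *Arhgef7*, *Col4a1* and *Col4a2*, with log2 fold changes of 0.65, 1.86, 0.9, 0.58, 0.93 and 1.09. *Col4a1* and *Col4a2* encode the collagen IV chains of the vascular basement membrane, and *Fgfr1* a growth factor receptor.

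Within 10 Mb of *Kbtbd11* itself 6 of 62 genes were called, 1 of them lower. Of all genes tested in ECs, 5.82% were called in either direction and 2.06% lower. Around the other members, 12 of 117 genes within 10 Mb of *Cyp2e1* were called in either direction, 2 of them lower, along with 5 of 114 near *Cyp26b1* (2 lower), 5 of 103 near *Slc26a10* (3 lower) and 2 of 34 near *Sirpb1c* (1 lower). *B4galnt1*, which overlaps *Slc26a10* on the opposite strand, read 0.342 and 0.177 CPM in WT1 and WT2 and 0.887 and 0.546 in KO1 and KO2 and did not pass (log2 fold change 1.47, edgeR adjusted p = 0.208). The *Angpt2*-KO genotype and any flanking sequence inherited with the deleted allele cannot be told apart in these 4 mice.

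The genes most like each member were named by the correlation of log2(CPM + 1) over 22 sums of 1 *Angpt2*-WT mouse and 1 cell type or zone. They were *Nexmif*, *Tnfaip8l1* and *Hapln3* for *Cyp2e1* (Pearson r 0.77, 0.73 and 0.73), *Slc43a3*, *Ces2e* and *Irx5* for *Cyp26b1* (0.9, 0.9 and 0.89), *Lef1*, *Mllt3* and *Dixdc1* for *Kbtbd11* (0.87, 0.86 and 0.85) and *Cit*, *Krtap28-13* and *Jag2* for *Slc26a10* (0.85, 0.84 and 0.82). The sums share libraries and depth, so the values are a description of likeness. Over the 44 sums of all mice the leading gene was *Adh1* for *Cyp2e1* (0.69), *Car8* for *Cyp26b1* (0.88), *Usp53* for *Kbtbd11* (0.81), *Alpl* for *Slc26a10* (0.79) and *Klra2* for *Sirpb1c* (0.89). Between the 5 genes, over the same 44 sums, r ran from -0.25 for *Cyp26b1* and *Kbtbd11* to 0.49 for *Cyp2e1* and *Kbtbd11*. The leading genes were picked as the best of many, so their values cannot be set against those of fixed pairs. The 44 sums also hold the genotype difference by which the 5 genes were chosen.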

How the data were processed

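The deposited files held raw UMI counts per gene and cell, which the authors made with Cell Ranger 6.1.2 against the mm10 build per the submitters' processing notes, with 1 filtered matrix for each of the 2 *Angpt2*-WT and 2 *Angpt2*-KO mice. The 5 genes, the gene lists and the tests were chosen with earlier results of these data known. Cells with over 500 genes and under 10% mitochondrial UMIs were clustered in Seurat 5.3.0 (2000 variable genes, 50 principal components), leaving out 1397 genes: the members, the listed genes and their neighbours within 10 Mb. Clusters were named "-like" from fixed markers. No doublet caller was run, and doublets were not removed.

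UMIs were summed per mouse and cell type, and the sums, not cells, were compared. edgeR 4.0.16 (TMM, filterByExpr, quasi-likelihood test, Benjamini-Hochberg adjusted p, threshold 0.05) was run in R 4.3.3 over all genes, with DESeq2 1.42.0 as an alternative. Tests within a genotype had a term for the mouse. CPM were computed from the sums, so a level compares cell groups and not RNA per cell. Every test rests on 2 mice a group. The genes named were the members, the called genes of the lists and fixed relatives, *Angpt2*, the called genes within 10 Mb of it, and the 3 genes most correlated with each member (at least 10 CPM in 2 sums). Positions came from GENCODE M21, which matched 99.84% of gene identifiers. A count of 0 was given a floor of 3 UMIs per library. The code was tested on simulated data. The values of 1 gene counted in the lists are not reported here.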

Additional observations from a re-analysis of the deposited data

Results flagged for a closer look

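These values come from cell groups that were too small in some mice for the comparisons above and that no comparison used. They were picked out because an *Angpt2*-KO mouse with at least 20 cells there lay above WT2, the 1 *Angpt2*-WT mouse with as many, against the direction in ECs. In choroid plexus epithelium-like cells, of which KO2 gave 176 but WT1, WT2 and KO1 only 12, 32 and 8, *Cyp2e1* read 6.11 CPM in KO2 (19 UMIs) and 0 in WT2. *Kbtbd11* read 63 CPM in KO2 and 9.03 in WT2, beside 86.8 in the 12 cells of WT1 (6 UMIs), and *Slc26a10* 14.5 CPM in KO2 and 6.77 in WT2. The cells under this name differed in make-up between mice. Choroid plexus epithelium markers summed to 39300 CPM in KO2 but to 147000, 295000 and 328000 in WT1, WT2 and KO1. Pericyte markers summed to 2830 CPM in KO2 and 205 in WT2. The EC markers in those cells of KO2 stood at a median of 84.8% of its EC level (61.8% to 107%), and *Cyp2e1* at 497%. The part of endothelial RNA in these values was not tested. In T or NK-like cells, 14 to 32 per mouse, *Kbtbd11* read 99.3 CPM in KO1 (13 UMIs), beside 38.2 in WT1, 74.2 in WT2 and 57.1 in KO2.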

How the results depend on the processing

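Each genotype had 2 mice. None of the members' fitted differences changed sign between *Angpt2*-KO and *Angpt2*-WT mice under any alternative run. The alternatives reuse the mice on which the genes were chosen as lower, so nothing is read from the kept sign. Depth limited *Sirpb1c*, *Cyp26b1* in capillary-like ECs and *Cyp2e1* in arterial-like ECs to a few UMIs. Where a value moved, the cause was not tested.

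In ECs, thinning each cell to 2000 UMIs gave log2 fold changes of -3.21 for *Cyp2e1*, -1.89 for *Cyp26b1* and -1.20 for *Kbtbd11*. The mean of CPM per cell, which weights each cell equally, gave -3.20, -1.87 and -1.11 for these and -1.32 for *Slc26a10*, which read -1.65 with the stricter cell filter (over 1000 genes, under 5% mitochondrial UMIs). Leaving out 1 mouse gave -4.41 to -4.23 for *Cyp2e1*, -2.39 to -1.97 for *Cyp26b1*, -1.33 to -1.26 for *Kbtbd11* and -1.55 to -1.40 for *Slc26a10*.

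edgeR called 786 genes in ECs. This became 1548 with no filter on low counts, 995 with DESeq2, and 609 with library size without TMM, an alternative chosen after seeing the data. Leaving out 1 mouse gave 237 to 1414 (390 without WT1, 237 without WT2, 1414 without KO2). Outside the angiogenic-like cluster 155 genes became 337 with DESeq2, 782 with no filter, and 187 to 1238 without 1 mouse (1238 without WT1, 346 without KO1, 253 without KO2). With a replicate block, which pairs mice of the same number and sex, the counts were 973 and 306. The labels state no shared litter or day. The paper speaks of 2 independent experiments, which may be the mice numbered 1 and 2. The deviations of same-numbered mice correlated at 0.09 (Pearson) and -0.15 (Spearman) over 13515 genes. The main fits did not treat the mice as paired, and the part of experiment or sex in the results was not tested.

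Between arterial-like and venous-like ECs, the values from 1 *Angpt2*-WT mouse were -7.01 and -5.58 for *Cyp2e1*, -1.6 and -0.98 for *Cyp26b1*, -1.43 and -1.36 for *Kbtbd11* and 2.47 and 2.87 for *Slc26a10*. The call for *Cyp26b1* was lost in the *Angpt2*-KO mice (-0.49, edgeR adjusted p = 0.71). For the angiogenic-like cluster, DESeq2 gave *Cyp2e1* -3.81 (adjusted p = 0.0715), and single mice gave -7.28 and -2.81 for it, -1.03 and 0.23 for *Cyp26b1*, -1.69 and -1.37 for *Kbtbd11* and -4.16 and -3.44 for *Slc26a10*. Within 2 Mb of *Angpt2* 1 of 2 genes tested in ECs was called. Within 20 Mb the count was 7 of 141, or 4.96%, where 5.82% of all genes were called.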
